A study of Mus musculus with 175 samples.

Results

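Solute carriers are the largest group of membrane transport proteins, and their genes are named Slc after the family and the member. Detected solute carrier genes were examined in single progenitors of the mouse fetal liver. The members were the protein-coding genes whose symbol starts with Slc, a family number, the letter a and a member number, Slc4a1 left out, with at least 1 raw read in 25% or more of the cells. They were thus selected on the reads of all 4 sorted populations together, and the rule used no comparison between populations. Of the solute carrier genes in the deposited annotation it chose 109, while 106 had no read in any of the 172 cells and 126 had a read in fewer than 25% of them.

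Most solute carriers let a solute pass a membrane along its gradient, or drive it against that gradient by coupling it to sodium, protons or an exchanged solute. The families divide by substrate into carriers of amino acids, of sugars and lactate, of metals, of inorganic ions, of vitamins and nucleosides, and into the large family of the inner mitochondrial membrane. Erythroid precursors are known for a high demand for iron, glycine and other substrates of heme synthesis, and mature red cells carry glucose, urea, nucleoside and anion transporters in quantity.

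The cells came from livers of E14.5 embryos (14.5 days post fertilization) on a C57BL/6 crossed with ICR background. All carried the Runx1 reporter alleles that the protocol gives as P1-GFP::P2-hCD4/+ and the genotype label as P2-GFP::P2-hCD4/+, in which human CD4 on the cell surface reports transcription that starts at P2, a promoter of the hematopoietic transcription factor gene Runx1. Megakaryocyte erythroid progenitors (MEPs) and common myeloid progenitors (CMPs), sorted as Lin- SCA1- C-KIT+ CD41- CD150+ cells that lack (MEPs) or carry CD34 (CMPs), were each divided into cells without (P2-) and with (P2+) human CD4. The sorted CMPs are labelled low and high, which was read as P2- and P2+. The livers of 2 litters were pooled before the sort, so each population is 1 sample, its cells are not replicates, and no test between populations was possible.

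After the filters 172 of the 175 deposited cells were kept, of which 56 were P2- MEPs and 47 P2+ MEPs, with 27 P2- CMPs and 42 P2+ CMPs. Where 4 values follow each other in the stated order, the order is P2- MEPs, then P2+ MEPs, then P2- CMPs, then P2+ CMPs. Reads on mouse genes per cell ranged from 295064 to 1540631, and the summed reads of a population from 18334696 in P2- CMPs to 36351033 in P2+ CMPs. For each gene the pooled CPM of a population is its reads over all cells per 1000000 reads on mouse genes. Populations were compared by the log2 ratio of pooled CPM, and a member was counted as higher or lower where this ratio was at least 1 in size, that is a fold of 2. Values in brackets after a level or ratio are exact 95% intervals, which cover counting error only, since reads without molecular identifiers are not independent molecules.

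Of the members, 84 had a read in at least 25% of the cells of each population, 14 did so in 3 populations, 8 in 2 and 3 in 1. Those 3 were Slc40a1, Slc30a10 and Slc39a3, all in P2- MEPs. The limit of 43 cells could be met by a gene read in the P2- MEPs or the P2+ MEPs alone, but not by a gene read in the 27 P2- CMPs or the 42 P2+ CMPs alone. Just inside the limit stood Slc30a10 with 43 cells and Slc23a2 and Slc29a3 with 44 each. Just outside stood Slc45a3, Slc25a25 and Slc24a5 with 42 cells each. Slc45a3 was at 17.02, 31.2, 41.8 and 1.07 CPM in the stated order, and was not counted. The exons of 38 members overlap another annotated gene, which HTSeq resolves by giving such reads to neither gene, and the overlap took more than 25% of the exon bases of Slc39a7 (80.7%) and Slc33a1 (32.02%), among others.

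Markers of several cell types differed between the populations. The 9 erythroid markers summed to 2226, 1216, 626 and 347.97 CPM in the stated order. All 9 had reads in every population except Ermap, which had none in P2+ CMPs. The 6 stem and multipotent markers summed to 8.72, 119, 659 and 1009.7 CPM in the stated order, and the 7 granulocyte/monocyte markers to 16.3, 66.6, 404 and 653. Elane, Ctsg and Csf1r had no read in P2- MEPs and at most 23, 3 and 77 reads in any other population. Csf1r had no read in P2+ MEPs either, and most of the sum came from Mpo, Prtn3 and Spi1 in every population. The 7 megakaryocyte markers summed to 49.2, 489, 490.4 and 599.8 CPM, and Pf4, Gp9 and Gp1bb had no read in P2- MEPs. Of the 7 macrophage markers 5 had no read in any population and the list summed to at most 0.385 CPM. The hepatocyte and endothelial lists summed to 10.6 to 24.7 and 4.80 to 19.7 CPM. A single P2- CMP carries a subtype label that names MEP, and it had 2180.0 CPM of the erythroid markers, the highest sum among P2- CMPs. Without this cell, 15 in place of 17 members were higher in P2- CMPs over P2- MEPs, against 12.1% of all features. The count of members lower in P2+ over P2- CMPs stayed at 10, of which 9 were the same. Slc7a5 was no longer among them and Slc12a2 was added. The other counts over single comparisons, and those over both comparisons of a pair, did not change. Counts by role and of other transporter families were taken with this cell only.

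The 109 members together took 8509.5 (8477 to 8542), 7808 (7778 to 7839), 7167 (7128 to 7206) and 6967 (6939.5 to 6994) CPM in the stated order. Their summed level was thus lower in CMPs than in MEPs, with log2 ratios of -0.25 among P2- cells and -0.16 among P2+ cells, and it was lower in P2+ than in P2- cells by -0.12 in MEPs and -0.04 in CMPs. The cells of all populations overlapped, with summed levels from 6945 to 10068 CPM in P2- MEPs and from 4919 to 8416 CPM in P2+ CMPs. With reads divided by the ERCC spike-in reads in place of all mouse reads, the ratios of P2+ over P2- CMPs and of P2+ CMPs over P2+ MEPs turned to 0.29 and 0.27. That scaling moved the median ratio of all tested genes by -0.62 for P2+ over P2- MEPs, 0.33 for P2+ over P2- CMPs, -0.51 for P2- CMPs over P2- MEPs and 0.43 for P2+ CMPs over P2+ MEPs, so the ratios given from here on are relative to all mouse reads.

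Mitochondrial carriers, with 26 members, took the largest share of the members' reads, from 43.3% in P2+ MEPs to 46.3% in P2- MEPs. Slc25a3, the mitochondrial phosphate carrier, and Slc25a4 and Slc25a5, which exchange ADP for ATP across the inner membrane, alone took 28.8% to 30.7%. The 16 members that carry amino acids summed to 1665, 1514, 1359 and 1305 CPM in the stated order. The 17 metal transporters summed to 721, 647, 479.7 and 540.1 CPM, a log2 ratio of -0.59 (-0.62 to -0.55) for P2- CMPs over P2- MEPs and -0.26 (-0.29 to -0.23) for P2+ CMPs over P2+ MEPs. The second ratio passes 0 where the ERCC scaling adds 0.43 to it. The 17 carriers of vitamins, lipids, nucleosides and other organic solutes summed to 896, 862, 722 and 639 CPM, a log2 ratio of -0.31 (-0.34 to -0.28) for P2- CMPs over P2- MEPs and -0.43 (-0.46 to -0.41) for P2+ CMPs over P2+ MEPs. The median of their single ratios was 0.22 and -0.07, so that sum and median differed in sign among P2- cells. To the ratio of this sum among P2+ cells the ERCC scaling also adds 0.43, about as much as its size. In the first of these comparisons the summed metal transporters had the lowest ratio of the 8 roles, and in the second the summed organic solute carriers. Sugar and monocarboxylate carriers stayed between 552 and 632 CPM and carriers of inorganic ions between 193 and 248.9. The 3 members that bear the name but are not transporters, Slc9a3r1, Slc4a1ap and Slc7a6os, summed to 149, 239.4, 186 and 237.4 CPM.

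**Figure D1:**
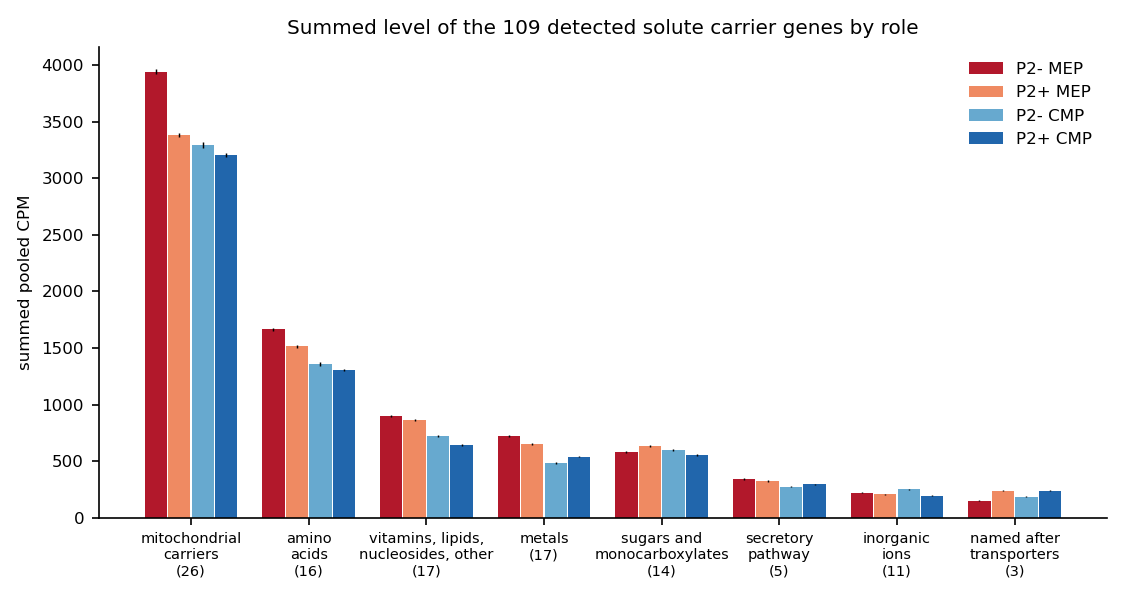
Bars give the summed pooled CPM of the members of each role in the 4 populations (colours), with exact 95% Poisson intervals as error bars and the number of members in brackets. Mitochondrial carriers stand highest, at 3207 to 3940 CPM, and the metal transporters stand at 721 CPM for P2- MEPs and 479.7 for P2- CMPs.

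Per kb of annotated exon, Slc25a5 was the most abundant member at 670.0 CPM per kb over all cells, followed by Slc25a3 (148), Slc25a4 (148), Slc3a2 (79.7), Slc25a1 (72.1), Slc25a11 (70.0), Slc9a3r1 (66.9), Slc25a39 (63.9), Slc35a4 (63.7) and Slc50a1 (62.6). Slc25a5 stood at 731, 678, 633 and 629 CPM per kb in the stated order, and Slc25a4 at 162, 142, 139 and 146. Slc3a2, the heavy chain shared by several amino acid exchangers, stayed between 73.4 and 93.0 CPM per kb. Slc25a1, the citrate carrier, and Slc50a1, a sugar transporter, moved more within this group. Slc25a1 was at 111, 68.0, 42.2 and 58.2 CPM per kb in the stated order, and Slc50a1 at 27.3, 41.4, 89.997 and 96.9. Slc38a1, Slc25a3, Slc25a4 and Slc25a5 were read in all 172 cells.

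In the comparison of CMPs with MEPs among P2- cells, 21 of 109 members were lower and 17 higher, where 6.87% of the 9238 features read in at least 25% of the cells were lower and 11.9% higher. Among P2+ cells, 17 members were lower and 7 higher, against 7.57% and 7.90% of all features. With ERCC reads these counts were 31 lower and 8 higher among P2- cells, against 21.1% and 6.48% of all features. Among P2+ cells they were 11 lower and 20 higher, against 3.06% and 16.9%, so that with this scaling more members were higher than lower there. The median ratio of the members was -0.10 among P2- cells and -0.05 among P2+ cells, and that of all features -0.01 and -0.06. The share of members that were lower was 19.3% and 15.6%, more than that of all features in both comparisons, while the share that were higher was 15.6% among P2- cells and 6.42% among P2+ cells. The limit over all cells weighs the P2- MEPs, the largest population, most. With a limit of 25% of the cells of any 1 population in its place, an alternative added after the data were seen, 24 of 133 members were lower and 30 higher among P2- cells, against 7.79% and 16.4% of 10586 features, and 21 lower and 15 higher among P2+ cells, against 8.57% and 11.9%. By role, 5 of the 17 metal transporters were lower and 2 higher among P2- cells, and 4 lower and 3 higher among P2+ cells. Of the 26 mitochondrial carriers 4 were lower and 1 higher among P2- cells, and 1 and 1 among P2+ cells. Of the 16 amino acid carriers 3 were lower and 1 higher among P2- cells, and 3 and 0 among P2+ cells. Of the 14 sugar and monocarboxylate carriers 3 and 5 were lower and 4 and 2 higher. The 17 carriers of vitamins, lipids, nucleosides and other organic solutes held the most members that were higher among P2- cells, 7, with 5 lower, and among P2+ cells 1 was higher and 2 lower. Of the 11 carriers of inorganic ions 2 were higher and 0 lower among P2- cells, and 0 and 1 among P2+ cells. The 5 transporters of the secretory pathway and the 3 members that are not transporters had 1 lower each, among P2+ and P2- cells respectively, and 0 higher. Across the 109 members the ratios of both comparisons, which share no cells, had a Spearman correlation of 0.46, and across all features 0.44.

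**Figure D2:**
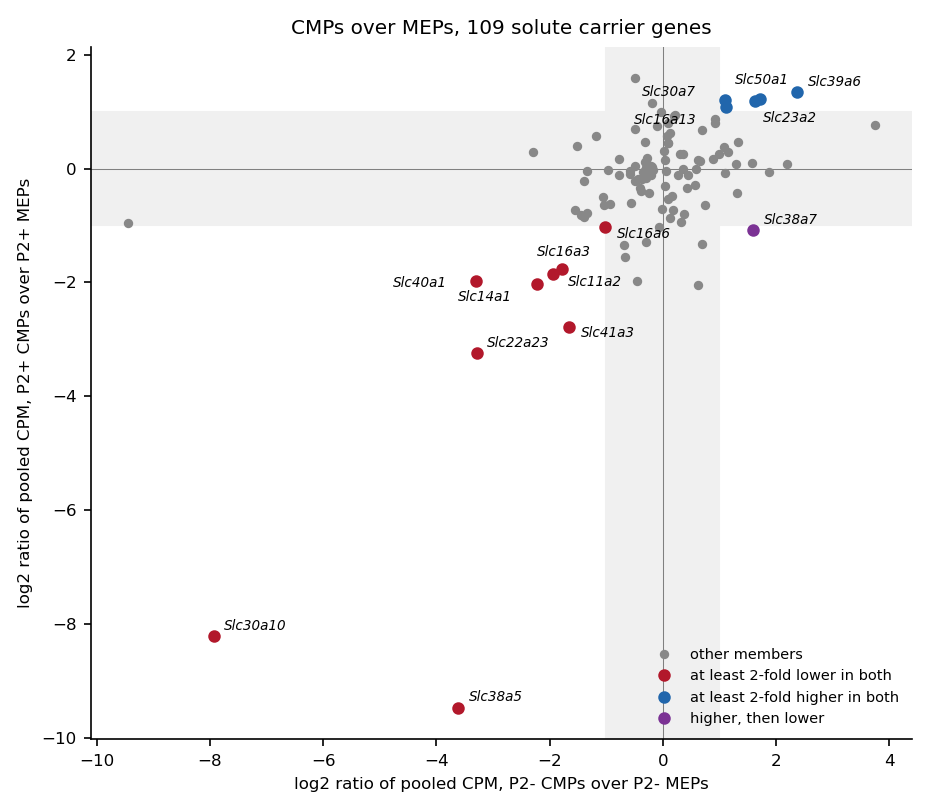
Each point is 1 of the 109 members, with the log2 ratio of pooled CPM of P2- CMPs over P2- MEPs on the x axis and of P2+ CMPs over P2+ MEPs on the y axis, and grey bands mark ratios under 1 in size. The 9 members lower in both comparisons (red) stand at the lower left with Slc30a10 and Slc38a5 farthest out, and the 5 higher in both (blue) lie between 1.08 and 2.37 on both axes. A ratio against 0 reads is drawn at its bound from 3 reads.

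In both comparisons, 9 of 109 solute carrier genes, against 2.28% of all features, were lower in CMPs. They were the metal transporters Slc40a1, Slc11a2, Slc30a10 and Slc41a3, the monocarboxylate transporters Slc16a3 and Slc16a6, the urea transporter gene Slc14a1, the amino acid transporter gene Slc38a5 and the organic ion family member Slc22a23. The summed erythroid markers were also lower in both CMP populations, and their part in this count was not tested. Of the 9, Slc30a10, Slc40a1, Slc38a5 and Slc22a23 stayed under 25% of the cells in both CMP populations, so that these 4 met the rule through the MEPs, in which they are high. The other 5 had a read in at least 25% of the cells of a CMP population. Another 5 of 109, against 4.42% of all features, were higher in both, namely the zinc transporters Slc30a7 and Slc39a6, Slc16a13, the ascorbate transporter gene Slc23a2 and Slc50a1. Without the cell of highest level 8 members were lower and 2 higher in both, against 1.60% and 3.43% of all features. With the limit set in any 1 population 12 of 133 were lower and 12 higher in both, against 2.77% and 7.42% of all features. Slc38a7, a lysosomal carrier of glutamine and asparagine, was the 1 member higher among P2- cells and lower among P2+ cells, a pattern of 0.379% of all features. It was at 7.38, 12.4, 22.4 and 5.89 CPM in the stated order. Its ratio among P2+ cells was -1.08. This was -0.81 without the P2+ MEP of highest level, -0.64 with equal weight for every cell and -0.65 with ERCC reads, so that under each of these it was past 1 among P2- cells alone.

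Slc14a1 encodes the urea transporter of red cells. It was at 162 (157 to 166), 175 (170.1 to 179), 34.7 (32.04 to 37.5) and 42.8 (40.7 to 45.01) CPM in the stated order. It was 4.66-fold lower in CMPs among P2- cells and 4.08-fold lower among P2+ cells, with ratios of -2.22 (-2.34 to -2.10) and -2.03 (-2.11 to -1.95). In cells thinned to 100000 reads on mouse genes it was read in 56 of 56, 43 of 47, 11 of 27 and 11 of 42 cells in the stated order. The highest P2+ CMP was at 420 CPM, above the median of 150 CPM of the P2- MEPs, so the cells of the populations overlapped.

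Slc38a5 encodes a sodium-coupled transporter of neutral amino acids such as glutamine and glycine and lies on chromosome X of GRCm38 from 8271133 to 8280179. It was at 124 (120.0 to 128), 58.4 (55.7 to 61.1) and 10.1 (8.74 to 11.7) CPM in the first 3 populations of the stated order, and it had 0 reads in P2+ CMPs, which allows up to 0.0825 CPM at 3 reads. Its level was lower at each step of this order, as was the sum of the erythroid markers, and the part of those cells in the difference was not tested. Set against the floor of 3 reads it was at least 707-fold lower in P2+ CMPs than in P2+ MEPs, where the end of the log2 interval nearest 0 was -9.17, and it was 12.2-fold lower in P2- CMPs than in P2- MEPs (ratio -3.61, -3.83 to -3.40). After thinning it was read in 46 of 56, 21 of 47 and 3 of 27 cells of the first 3 populations. The 0 of 42 P2+ CMPs allow a share of up to 7.14% at 3 cells (8.41% by the exact interval). Slc38a1 and Slc38a2, of the same family, were at 186 to 209.2 and 141 to 175 CPM in the 4 populations.

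Slc30a10 encodes a manganese exporter and lies on chromosome 1 from 185454848 to 185468762. Its level was 40.1 CPM for P2- MEPs (37.9 to 42.4) and 24.4 CPM for P2+ MEPs (22.7 to 26.1), and it had 0 reads in both CMP populations. Set against the floor of 3 reads it was at least 245.2-fold lower in P2- CMPs than in P2- MEPs and at least 295.1-fold lower in P2+ CMPs than in P2+ MEPs, and the ends of the log2 intervals nearest 0 were -7.64 and -7.90. Before thinning it was read in 32 P2- MEPs and 11 P2+ MEPs. After thinning it was read in 31 of 56 P2- MEPs (55.4%, 41.5 to 68.7) and 10 of 47 P2+ MEPs (21.3%, 10.7 to 35.7), and the 0 of 27 P2- CMPs and 0 of 42 P2+ CMPs allow shares of up to 11.1% and 7.14% at 3 cells (12.8% and 8.41% by the exact interval). With its 43 cells it is also the member at the limit of the rule.

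The other 3 metal transporters had reads in all populations. Slc40a1 encodes ferroportin, the iron exporter of the plasma membrane. It was at 48.8, 20.2, 4.96 and 5.14 CPM in the stated order. In both CMP populations its reads, before and after thinning, came from 2 cells, and the highest cell held 81.3% and 67.4% of them. Slc11a2 encodes the divalent metal transporter that moves iron out of endosomes after transferrin uptake, and it was at 90.1, 74.9, 23.6 and 20.8 CPM in the stated order. After thinning it was read in 52 of 56, 36 of 47, 9 of 27 and 16 of 42 cells in the stated order. Slc41a3, of a family of magnesium transporters, was at 96.2, 81.7, 30.5 and 11.9 CPM, and its ratio was -1.66 (-1.79 to -1.53) among P2- cells and -2.78 (-2.93 to -2.63) among P2+ cells.

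Slc16a3, a lactate transporter, had nearly equal levels within each compartment. Both MEP populations were at 69.2 (P2-) and 69.1 CPM (P2+), and both CMP populations at 20.1 (P2-) and 20.4 CPM (P2+). Slc16a1, the other lactate transporter among the members, was at 155, 149, 96.1 and 58.7 CPM in the stated order, with ratios of -0.69 (-0.77 to -0.61) among P2- cells and -1.34 among P2+ cells. With ERCC reads these were -1.20 and -0.91, so that the one past 1 changed. The difference between these ratios was not tested. Slc22a23 was at 39.5, 12.8, 4.04 and 1.35 CPM, and in the P2- and P2+ CMPs its highest cell held 81.1% and 67.3% of the reads. Slc16a6 was at 40.4, 21.4, 19.8 and 10.5 CPM with a ratio of -1.03 in both comparisons, and without the P2- MEP or P2+ MEP of highest level these were -0.93 and -0.83.

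Of the 5 members higher in both, Slc50a1 had the highest level. It encodes a sugar transporter of the SWEET family and was at 40.1 (37.9 to 42.4), 60.7 (58.0 to 63.5), 132 (127 to 137) and 142 (138 to 146) CPM in the stated order. It was read in 33 of 56, 27 of 47, 18 of 27 and 38 of 42 cells after thinning. Slc39a6, a zinc importer, was at 4.90, 14.4, 25.4 and 36.4 CPM, and Slc30a7, which carries zinc into the Golgi, at 17.6, 24.9, 37.9 and 57.2 CPM. For both zinc transporters the level was higher in each population than in the one before it in this order, as was the sum of the stem and multipotent markers, and the part of that cell state in the difference was not tested. That sum includes Cd34, the gene of the marker that divided CMPs from MEPs. Slc23a2 was at 8.20, 8.04, 25.4 and 18.3 CPM, and Slc16a13 at 15.2, 13.6, 32.7 and 28.8 CPM. Without the CMP of highest level, Slc16a13 passed in neither comparison (0.54 and 0.91), Slc23a2 no longer among P2+ cells (0.88) and Slc30a7 no longer among P2- cells (0.92), whereas Slc50a1 and Slc39a6 stayed above 1 in both. Among P2- cells Slc30a7 was also under 1 with equal weight for every cell (0.82) and with ERCC reads (0.59), as was Slc16a13 (0.65 and 0.60), which was at 0.99 among P2+ cells with DESeq2 size factors.

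**Figure D3:**
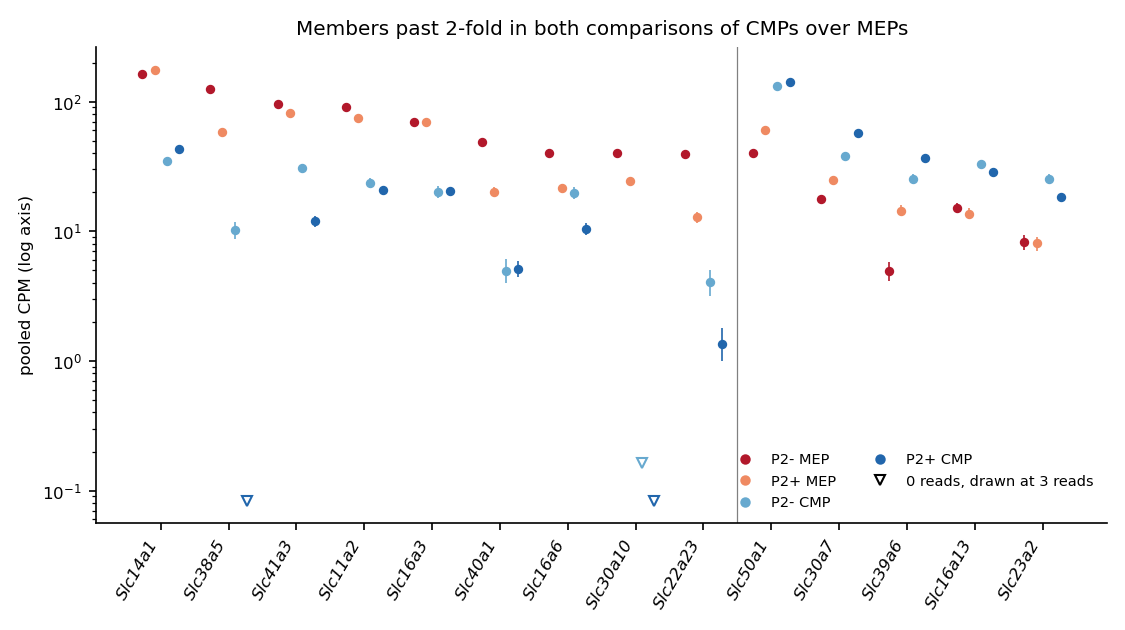
Pooled CPM on a log axis in the 4 populations (colours) for the 9 members lower in CMPs in both comparisons (left of the line) and the 5 higher in both (right), with exact 95% Poisson intervals. Open triangles mark 0 reads and are drawn at 3 reads, for Slc38a5 in P2+ CMPs and Slc30a10 in both CMP populations, and Slc14a1 stands highest at 162 and 175 CPM in MEPs.

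For members lower or higher in both comparisons, the bases before a RefSeq start are shown, since these genes differed in 1 direction between the same populations. RefSeq promoter windows (GRCm38.p6) matched 80 of the 109 members, 5 of the 9 members lower in both comparisons and 3 of the 5 higher in both. In the 250 bases before the RefSeq start, 2 short motifs were counted on both strands, whose matches can share an end base. These were GATAA, which reads TTATC on the other strand, part of the site bound by GATA factors, and CACCC, which reads GGGTG there, part of that bound by Klf1 and related factors. GATAA was in 22.6% of all 32851 windows and in 1 of the 5 lower and 0 of the 3 higher. CACCC was in 52.01% of all windows, in 5 of the 5 lower and in 3 of the 3 higher, and in 54 of the 80 member windows. For Slc41a3 and Slc16a3, both among the lower, the RefSeq start lies 14521 and 587 bases from the GENCODE start, and the window of Slc38a5 lies almost wholly inside the GENCODE gene. A match is only a match of letters. The windows of Slc30a10 and Slc22a23 (lower in both), Slc39a8 (at 1 read in P2- CMPs) and Slc50a1 (higher in both) are given 5′ to 3′ on the strand of the gene, with both motifs in capitals.
Slc30a10, chr1:185454598-185454847, plus strand: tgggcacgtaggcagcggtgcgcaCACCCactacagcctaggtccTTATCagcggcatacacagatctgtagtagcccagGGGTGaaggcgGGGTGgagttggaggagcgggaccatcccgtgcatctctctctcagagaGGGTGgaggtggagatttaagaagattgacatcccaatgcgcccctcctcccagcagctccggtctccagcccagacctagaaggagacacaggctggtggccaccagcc
Slc22a23, chr13:34345219-34345468, minus strand: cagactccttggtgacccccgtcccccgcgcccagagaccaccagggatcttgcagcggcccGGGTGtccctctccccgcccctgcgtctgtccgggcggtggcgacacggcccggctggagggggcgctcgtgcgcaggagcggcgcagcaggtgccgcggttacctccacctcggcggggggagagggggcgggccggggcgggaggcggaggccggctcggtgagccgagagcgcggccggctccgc
Slc39a8, chr3:135825029-135825278, plus strand: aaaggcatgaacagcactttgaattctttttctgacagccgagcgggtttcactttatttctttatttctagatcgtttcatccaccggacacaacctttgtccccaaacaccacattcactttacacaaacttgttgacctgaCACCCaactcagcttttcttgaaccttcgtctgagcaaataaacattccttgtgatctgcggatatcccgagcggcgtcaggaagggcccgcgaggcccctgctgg
Slc50a1, chr3:89270571-89270820, minus strand: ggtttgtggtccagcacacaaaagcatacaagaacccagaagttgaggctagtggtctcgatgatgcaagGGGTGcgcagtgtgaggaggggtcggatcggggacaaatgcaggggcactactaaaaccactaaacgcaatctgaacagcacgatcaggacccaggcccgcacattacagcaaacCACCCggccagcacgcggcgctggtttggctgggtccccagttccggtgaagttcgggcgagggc
The Slc30a10 window holds 1 GATAA and 4 CACCC matches, and the windows of Slc22a23, Slc39a8 and Slc50a1 hold 0 GATAA and 1, 1 and 2 CACCC matches.

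Other members differed between CMPs and MEPs among P2- cells and not past 1 among P2+ cells. Slc39a8, an importer of zinc and manganese, was at 37.9, 17.7, 0.0545 and 9.11 CPM in the stated order, of which the third is 1 read. Its ratio was -9.44 (-14.75 to -6.96) among P2- cells and -0.96 (-1.16 to -0.76) among P2+ cells. DESeq2 size factors move the ratios of P2+ CMPs over P2+ MEPs by -0.09, which takes the second past 1 in size. Slc18a2, the vesicular monoamine transporter, was at 4.31, 18.97, 57.9 and 32.2 CPM, a ratio of 3.75 (3.48 to 4.02) among P2- cells and 0.77 (0.62 to 0.91) among P2+ cells. Slc44a2, of the choline transporter-like family, was at 24.6, 81.1, 90.5 and 77.5 CPM, so that only the P2- MEPs stood apart. Slc37a1, a sugar phosphate exchanger, had the same form at 4.87, 17.4, 22.3 and 18.3 CPM. The P2- MEPs were also the population in which the megakaryocyte markers were lowest, and the part of those genes in these differences was not tested.

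Slc29a1, the equilibrative nucleoside transporter of the plasma membrane, was at 215.4, 113, 78.9 and 64.1 CPM in the stated order, and Slc29a3, a lysosomal nucleoside transporter of the same family, at 10.7, 12.4, 22.6 and 16.1 CPM. Their ratios for P2- CMPs over P2- MEPs were -1.45 and 1.09, of which that of Slc29a3 was 0.80 with equal weight for every cell, 0.57 with ERCC reads and 0.49 without the P2- CMP of highest level. Slc29a2, the other nucleoside transporter of this family among the members, was at 24.7, 23.1, 9.44 and 12.8 CPM, with ratios of -1.39 among P2- cells and -0.86 among P2+ cells. Slc19a1, the reduced folate carrier, was at 149, 103, 72.8 and 66.4 CPM. Its ratio of -1.03 among P2- cells was -0.93 with equal weight for every cell, -0.98 without mitochondrial genes in the denominator and -0.96 without the P2- MEP of highest level. Slc25a32, the mitochondrial folate carrier, was at 40.8, 17.9, 16.3 and 10.4 CPM, a ratio of -1.33 among P2- cells. Among P2+ cells the ratios of Slc29a1, Slc29a3, Slc19a1 and Slc25a32 were -0.82, 0.37, -0.64 and -0.78.

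Between CMPs and MEPs, the iron and glycine carriers of mitochondria showed smaller differences than the iron transporters of the cell surface and endosome. Slc25a37 and Slc25a28, the mitoferrins that bring iron into mitochondria, were at 42.6, 25.9, 30.4 and 22.2 CPM and at 24.6, 25.3, 24.5 and 15.5 CPM. Slc25a38, a glycine carrier required for heme synthesis, was at 61.4, 35.9, 32.3 and 23.2 CPM, and Slc25a39 at 189, 167, 196 and 163 CPM. Slc48a1, a heme transporter, was at 129.7, 141, 110.3 and 105 CPM. None of these 5 reached a ratio of 1 in size in pooled CPM in any of the 4 comparisons. With equal weight for every cell Slc25a38 did so in P2- CMPs over P2- MEPs (-1.14). With ERCC reads Slc25a37 and Slc25a38 did so in P2+ over P2- MEPs (-1.33 and -1.39) and Slc25a38 in P2- CMPs over P2- MEPs (-1.44). Slc46a1, Slc6a9 and Slc7a11, also fixed on the list of textbook roles, were not members, being read in 4.65%, 6.40% and 8.14% of the cells.

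In P2+ over P2- MEPs, 12 of 109 members were higher and 9 lower, against 7.30% and 2.77% of all features. The median ratio of the members was -0.16, with 64 members below 0, where that of all features was 0.01. The higher members included Slc25a24, Slc18a2, Slc37a1, Slc44a2, Slc5a3, Slc39a6, Slc33a1, Slc17a9, Slc34a2, Slc9a3r1 and Slc39a10. The lower members included Slc39a7, Slc22a23, Slc40a1, Slc25a33, Slc43a3, Slc25a32, Slc39a8 and Slc38a5. Slc34a2 rested on 14 and 32 reads in P2- and P2+ MEPs and Slc39a7 on 28 and 9, the lowest counts among these members. Slc39a7 shares most of its exon bases with another annotated gene.

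Slc25a24, a mitochondrial carrier of ATP-Mg and phosphate, was at 3.63 CPM in the P2- (2.98 to 4.37) and 16.9 CPM in the P2+ population (15.5 to 18.4), a ratio of 2.22 (1.92 to 2.53). Slc44a2 was at 24.6 and 81.1 CPM (1.72, 1.60 to 1.84), and its median cell at 0.904 and 49.2 CPM. Slc9a3r1, which encodes a scaffold protein and no transporter, was at 67.01 and 148 CPM (1.14, 1.07 to 1.22). With ERCC reads 4 of the 12 higher members stayed past 1, Slc25a24 (1.60), Slc18a2 (1.52), Slc37a1 (1.22) and Slc44a2 (1.10), against 3.06% of all features. On that scale 32 members were lower, against 17.5% of all features. Slc9a3r1 was then at 0.52, Slc17a9 at 0.80, Slc39a6 at 0.94 and Slc5a3 at 0.99.

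The share of cells with a read differed between the populations. A read was found in at least 50% of the cells, after thinning, for 69, 44, 45 and 51 members in the stated order. These were 63.3%, 40.4%, 41.3% and 46.8% of the members, where 62.8%, 53.7%, 56.9% and 61.0% of all features were read so. For Slc38a5 the median cell was at 114 CPM for P2- MEPs and at 0 for P2+ MEPs, while the highest cells were at 485 and 522 CPM. For Slc30a10 the highest P2+ MEP, at 251.8 CPM, was above the highest P2- MEP at 191 CPM, although fewer P2+ MEPs had a read. The ranges of both populations overlapped for each of these members.

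**Figure D4:**
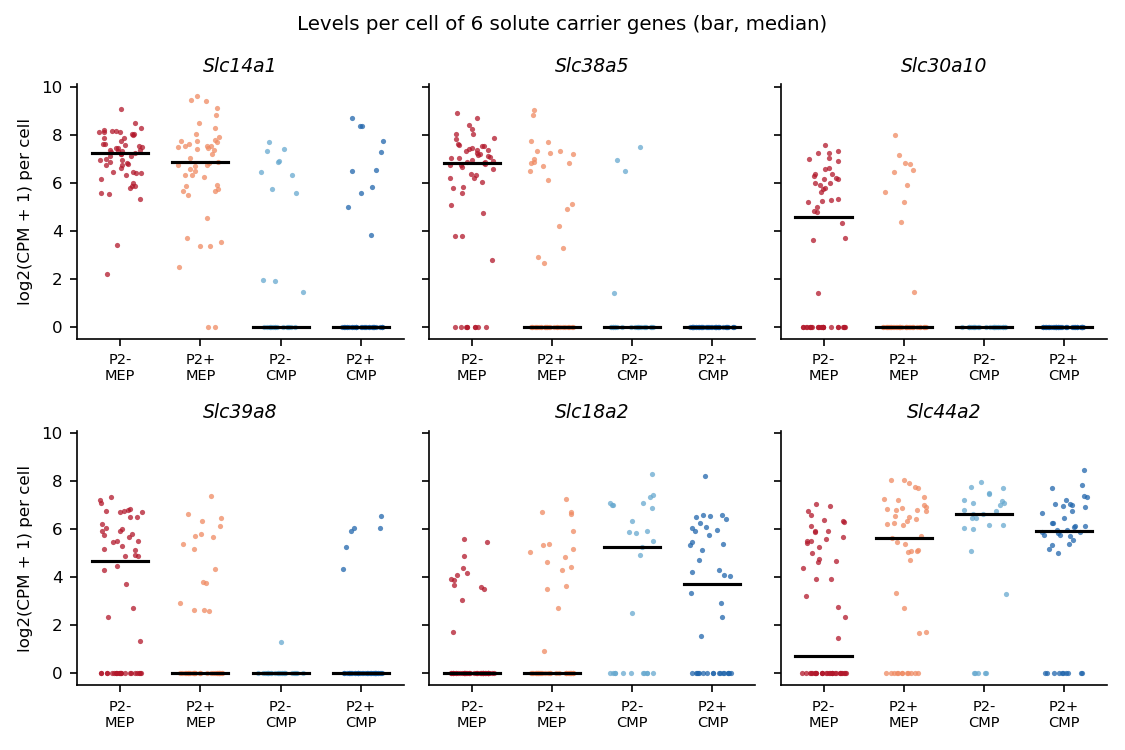
Each point is 1 cell, with log2(CPM + 1) on the y axis, for 6 members in the 4 populations, and black bars mark the median cell. Slc14a1 is read in nearly all MEPs, Slc38a5 and Slc30a10 in part of them and in few or no CMPs, Slc39a8 in few CMPs, and Slc18a2 and Slc44a2 have higher medians in CMPs than in P2- MEPs.

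In P2+ over P2- CMPs, 4 of 109 members were higher and 10 lower, against 3.60% and 4.57% of all features. The median ratio was -0.03 for the members and for all features. With ERCC reads 7 members were higher and 6 lower, against 8.32% and 2.23% of all features. No ratio could be had for Slc30a10, which had no read in either population. The 4 members higher in pooled CPM were Slc39a8, Slc25a24, Slc4a1ap and Slc25a33. The lower members included Slc38a5, Slc45a4, Slc38a7, Slc22a23, Slc20a2, Slc41a3, Slc33a1, Slc10a3 and Slc7a5. Slc38a5 was at least 123-fold lower at the floor of 3 reads, with an interval end nearest 0 of -6.63, but its reads in P2- CMPs came from 4 cells, of which the highest held 36.6%. The ratio of Slc33a1 was -1.23, and -0.77 without the P2- CMP of highest level and -0.90 with ERCC reads. The ratio of Slc22a23 was -1.58 (-2.13 to -1.04) and without its own highest P2- CMP 0.76, so that its direction rested on 1 cell.

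Slc45a4, of a sugar transporter family, was at 26.6 CPM in P2- CMPs and 6.82 in P2+ CMPs (-1.96, -2.19 to -1.74). Slc20a2, a phosphate transporter, was at 33.9 and 11.5 CPM (-1.56, -1.74 to -1.38). Slc7a5 encodes the light chain that forms the large neutral amino acid exchanger with Slc3a2, and it was at 138, 122, 86.5 and 41.8 CPM in the stated order. Its ratio of -1.05 (-1.15 to -0.95) in P2+ over P2- CMPs was -0.95 without the P2- CMP whose subtype label names MEP, which was also the P2- CMP of highest Slc7a5. Its partner Slc3a2 was at 258.9 and 260.8 CPM in P2- and P2+ CMPs.

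A single member, 1 of 108, was higher in P2+ cells of both compartments, Slc25a24, against 0.541% of all features, and 3 were lower in both, among them Slc22a23 and Slc38a5, against 0.401%. Slc25a24 was at 7.25 CPM in P2- CMPs and 20.1 in P2+ CMPs (1.47, 1.20 to 1.74), and after thinning read in 6 of 27 and 19 of 42 cells. Slc33a1, which carries acetyl-CoA into the endoplasmic reticulum, was higher in P2+ MEPs and lower in P2+ CMPs, as were 0.390% of all features, but passed 1 in neither with ERCC reads (0.82 and -0.90). It was at 9.05, 24.6, 14.02 and 5.97 CPM in the stated order. Slc25a33 and Slc39a8 were lower in P2+ MEPs and higher in P2+ CMPs, as were 0.206%. Slc25a33, a mitochondrial carrier of pyrimidine nucleotides, was at 26.9, 11.4, 5.45 and 13.9 CPM in the stated order. The ratios of both comparisons, which share no cells, had a Spearman correlation of 0.03 across the 108 members with both and 0.05 across all features.

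**Figure D5:**
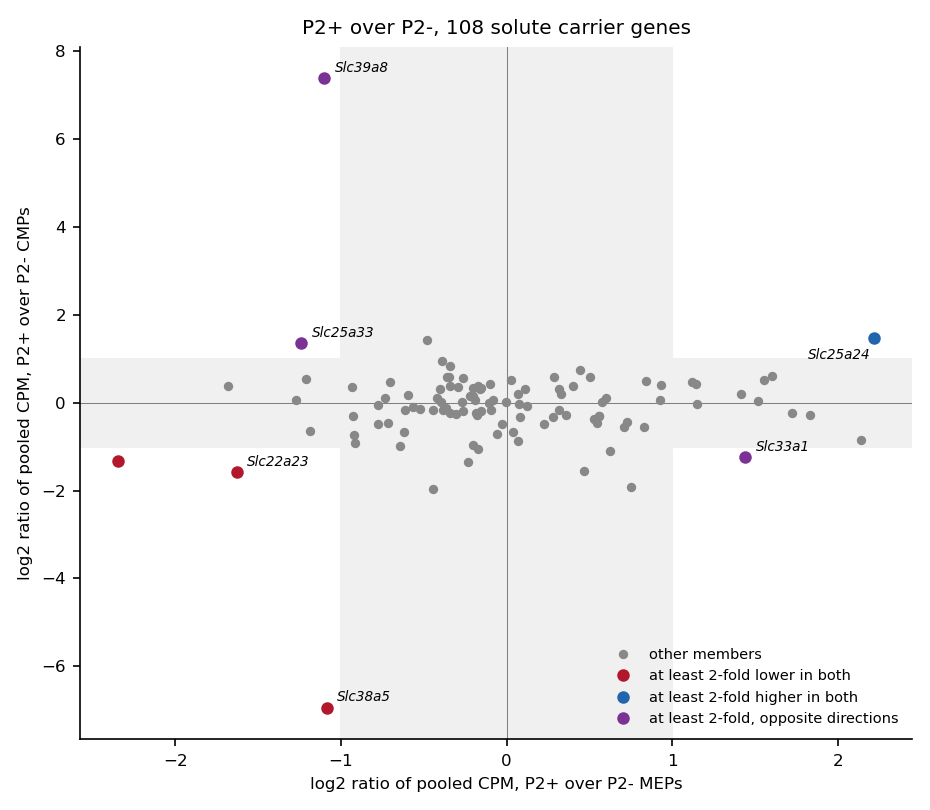
Each of the 108 members with both ratios is a point, with the log2 ratio of pooled CPM of P2+ over P2- MEPs on the x axis and of P2+ over P2- CMPs on the y axis, and grey bands mark ratios under 1 in size. Members lower in both are red, with Slc22a23 and Slc38a5 named, and Slc25a24 (blue) is higher in both, while Slc39a8, Slc25a33 and Slc33a1 (purple) point in opposite directions. Slc38a5 is drawn at its bound.

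Pairs of related carriers were set side by side per kb of exon. For the glucose transporters, Slc2a1 was at 15.8, 30.1, 25.05 and 33.01 CPM per kb in the stated order and Slc2a3 at 6.63, 8.05, 9.97 and 7.97, so Slc2a1 was the higher in every population. For the light chains of the amino acid exchangers the order changed. Slc7a5 was at 37.2 and Slc7a6 at 23.8 CPM per kb in P2- MEPs, and they were at 32.996 and 35.1 in P2+ MEPs, 23.3 and 35.4 in P2- CMPs and 11.3 and 28.8 in P2+ CMPs. Of the P2+ CMPs, 11 of 42 had a read of Slc7a6 alone after thinning and 2 of Slc7a5 alone, whereas of the P2- MEPs 0 of 56 had Slc7a6 alone and 4 had Slc7a5 alone. The phosphate transporters Slc20a1 and Slc20a2 were nearest in P2- CMPs, at 7.58 and 5.46 CPM per kb, and stood at 11.1 and 3.35 in P2- MEPs, 9.78 and 4.64 in P2+ MEPs and 6.40 and 1.85 in P2+ CMPs.

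The 9 members lower in both comparisons were set beside Klf1, an erythroid transcription factor gene, in the P2- CMPs. After thinning, 14 of the 27 P2- CMPs had a read of Klf1. These included 11 of 11 cells with Slc14a1, 10 of 10 with Slc41a3, 8 of 10 with Slc16a3, 8 of 9 with Slc16a6, 6 of 9 with Slc11a2, 3 of 3 with Slc38a5, 2 of 2 with Slc40a1 and 1 of 2 with Slc22a23, while Slc30a10 had no read. These 9 were chosen as lower in CMPs, as Klf1 is, so that a shared presence is a description. Of the features read in 9 to 11 of these cells, 5 are of the 9, 21 are other members and 1117 are of all features. The median share of the reading cells that also read Klf1 was 88.9% for the 5, 60% for the other members and 54.5% for all features. Without the P2- CMP whose subtype label names MEP, which read Klf1, 13 of 26 cells did so, and the counts became 9 of 9 for Slc41a3, 7 of 8 for Slc16a6 and 5 of 8 for Slc11a2, with the others as before. Among the P2+ CMPs 2 of 42 had a read of Klf1, and both were among the 11 with Slc14a1. Of the 9 members lower in both comparisons, the median P2- MEP had a read of 7, the median P2+ MEP of 5 and the median P2- and P2+ CMP of 2. None of the 9 was read in 7 of the 27 P2- CMPs and 8 of the 42 P2+ CMPs.

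Other transporter families were counted by the same rule, and their counts are read against the shares of all features given above for each comparison. These were 11.9% higher and 6.87% lower for P2- CMPs over P2- MEPs, 7.90% and 7.57% for P2+ CMPs over P2+ MEPs, 7.30% and 2.77% for P2+ over P2- MEPs, and 3.60% and 4.57% for P2+ over P2- CMPs. Of 18 detected ABC transporters, 5 were higher and 3 lower in the first of these, 1 and 4 in the second, 5 and 1 in the third and 0 and 1 in the last. Of 18 P-type ATPases, the ion and lipid pumps, 4 were higher and 2 lower in the first, 2 and 3 in the second, 3 and 2 in the third and 1 and 5 in the last. Of 16 subunits of the V-ATPase, the proton pump of lysosomes, 1 was higher and 1 lower in the first, 0 and 1 in the second, and none in the others. Of 11 MFSD transporters, 1 was higher and 1 lower in the first, 2 and 2 in the second, 1 and 2 in the third and 0 and 1 in the last.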

How the data were processed

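Single cells were sequenced with Smart-Seq2 with ERCC spike-ins. The authors deposited raw read counts per gene and cell, made with Trimmomatic 0.36, STAR 2.4.2a and HTSeq 0.6.1p1 on GRCm38 with GENCODE M12, without strand and without molecular identifiers, so the reads of antisense or overlapping genes cannot be separated. The deposited counts hold 5 HTSeq tallies, among them ambiguous reads (25.6% of the unique reads) and reads on no feature (7.40%), which were left out. Cells C251, C291 and C371 were left out by the rule that chose the members. The members and lists were chosen with earlier results of these data known.

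Reads on mouse genes were summed per population and given as CPM. Exact 95% Poisson intervals (levels), conditional binomial intervals (ratios) and Clopper-Pearson intervals (shares) cover counting error only. A count of 0 was set to a floor of 3 reads over the population for bounds. Cells were thinned to 100000 reads for shares of cells. Each population was 1 pooled sample, so no p-value was computed. Calls were counted against the 9238 features read in at least 25% of the 172 cells. Python 3.11.15, numpy 2.4.6, pandas 2.3.3, scipy 1.17.1 and matplotlib 3.10.9 were used, and the scripts were tested on simulated data.

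Named members were, in each comparison, the 5 highest and the 5 lowest ratios among members with at least 20 CPM in the higher population and a read in at least 25% of its cells. To these were added the 10 highest levels per kb, the lists of textbook roles, of paralog pairs and of genes named after transporters, the members beside the 25% limit and those with opposite ratios by P2. Slc16a6, Slc25a32, Slc29a2, Slc34a2, Slc39a7, Slc39a10 and Slc10a3 were named after their values were seen, as members of the sets described. Some members are counted but not reported here by name. Alternatives were equal weight for every cell, median-of-ratios size factors of the DESeq2 poscounts type, ERCC reads, a denominator without mitochondrial genes and Rn18s-rs5, all deposited cells, single cells left out, other folds, other detection limits and other thinning depths.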

Additional observations from a re-analysis of the deposited data

Results flagged for a closer look

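For 3 members the ratio of P2+ over P2- cells passed 1 in opposite directions in MEPs and CMPs. Slc25a33, a mitochondrial carrier of pyrimidine nucleotides, had a log2 ratio of -1.24 in MEPs and 1.35 in CMPs. Slc33a1 had 1.44 in MEPs and -1.23 in CMPs. With ERCC reads as the denominator these were 0.82 and -0.90, both under 1 in size, and without the P2- CMP of highest level the second was -0.77. Slc39a8 had -1.10 in MEPs and 7.38 in CMPs, where the P2- CMPs held 1 read. With 1 pooled sample per population the difference between the compartments was not tested.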

How the results depend on the processing

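No paired analysis was possible because each population was 1 pooled sample and the labels number cells only. Counts of members are given as higher and lower for P2+ over P2- MEPs, P2+ over P2- CMPs, P2- CMPs over P2- MEPs and P2+ CMPs over P2+ MEPs, in this order. With ERCC reads as the denominator they were 4 and 32, 7 and 6, 8 and 31, and 20 and 11, where 3.06% and 17.5%, 8.32% and 2.23%, 6.48% and 21.1%, and 16.9% and 3.06% of all features were called, and the summed level had ratios of -0.74, 0.29, -0.76 and 0.27, of which the second and the last reversed. A fold of 1.5 gave 21 and 23, 9 and 20, 27 (higher), and 18 and 31, against 16.2% and 9.28%, 10.6% and 13.6%, 22.2%, and 16.3% and 18.8%. A read in at least 50% of the cells left 58 members, with 3 and 1, 1 and 2, 3 and 10, and 1 and 7, against 3.87% and 1.23%, 1.22% and 2.17%, 6.99% and 5.08%, and 4.02% and 5.30%. A read in at least 10% gave 150 members, with 21 and 16, 14 and 16, 35 and 26, and 17 and 23, against 11.6% and 5.10%, 7.29% and 7.48%, 17.2% and 9.11%, and 12.4% and 9.83%. A read in at least 25% of the cells of any 1 population, an alternative added after the data were seen, gave 133 members, with 16 and 13, 10 and 13, 30 and 24, and 15 and 21, against 10.3% and 4.14%, 5.77% and 6.21%, 16.4% and 7.79%, and 11.9% and 8.57%. With it 12 were higher in both comparisons of CMPs over MEPs, 2 were higher and then lower in these, 2 were higher in P2+ cells of both compartments and 2 higher in P2+ MEPs and lower in P2+ CMPs, against 7.42%, 0.746%, 1.42% and 0.850%. With ERCC reads, also added, 0 were higher and then lower in CMPs over MEPs, 0 were higher in P2+ MEPs and lower in P2+ CMPs, and 4 the opposite way, against 0.0433%, 0.0433% and 1.59%. Equal weight gave 0 members higher and then lower in CMPs over MEPs (0.336%), and so did leaving out the cell of highest level (0.130%), which also gave 2 higher in both of these (3.43%) and 0 higher in P2+ MEPs and lower in P2+ CMPs (0.0866%). Asking the counting interval to lie beyond 1 left 11 higher in P2- CMPs over P2- MEPs and 3 higher in P2+ CMPs over P2+ MEPs, against 9.45% and 5.94%. Without the cell of highest level, 10 were higher in P2- CMPs over P2- MEPs, against 8.57%, and Slc22a23 reversed to 0.76 in P2+ over P2- CMPs. Equal weight for every cell moved the ratio of the summed level to -0.13 (P2 in MEPs), -0.0597 (P2 in CMPs) and -0.18 (CMPs over MEPs among P2+ cells), and a denominator without mitochondrial genes and Rn18s-rs5 to -0.086, -0.019, -0.19 and -0.13. The cause was not tested. Of the ratios of named members, 38 moved beyond their counting interval with the size factors, 104 with equal weight for every cell and 140 without the cell of highest level, and all but 6 with ERCC reads.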
